A study of Mus musculus with 4 samples.

Results

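The genes described here are 9 transcripts of resting microglia, the resident macrophages of the retina and brain. They are Tmem119, P2ry12, P2ry13, Cx3cr1, Csf1r, Siglech, Gpr34, Olfml3 and Aif1, chosen by name from the resting microglia signature, and all 9 were found among the 22558 genes listed. They were measured in whole eyes of 6-week-old mice that lack both Abca4, a photoreceptor flippase for retinaldehyde, and Rdh8, a photoreceptor retinol dehydrogenase. All 4 conditions carry this Abca4-/-Rdh8-/- genotype: a control without light, and eyes collected 3 h, 24 h and 7 days after light exposure. Each condition is labelled as eyes of 3 mice, and the deposited table holds 1 FPKM value (mapped fragments scaled to transcript length and library size) per gene and condition. There is therefore no replicate spread and no test. Every difference below compares one deposited value with another. No wild-type eyes were analysed here, so the genotype is common to all comparisons. The sources used here do not give the strength or length of the light exposure. Where 4 values of a gene stand in a row, they belong to the control, the 3 h, the 24 h and the 7-day sample, in that order.

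Microglia survey the retina with mobile processes and depend on signals from neurons and glia to stay in the resting state. Receptors for extracellular nucleotides, for the neuronal chemokine fractalkine and for the growth factors CSF1 and IL-34 carry much of that exchange. When microglia respond to injury, genes of the resting signature are known to be turned down while the TREM2 pathway, lysosomal and complement genes are turned up. Several of the 9 genes are also expressed by other macrophages, Csf1r, Cx3cr1 and Aif1 among them. In whole-eye RNA, fewer cells of a type and less RNA per cell cannot be told apart.

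The highest of the 4 values was at 7 days for 8 of the 9 genes, and at 24 h for Olfml3. Among all 14194 genes with a mean of at least 1 FPKM over the samples, 22.3% had their highest value at 7 days and 24.7% at 24 h. The lowest value was at 3 h for Tmem119, Cx3cr1, Gpr34 and Olfml3, at 24 h for P2ry12, P2ry13, Csf1r and Siglech, and in the control for Aif1. Of all 14194 genes, 25.6% were lowest at 3 h, 24% at 24 h, 26.9% in the control and 23.5% at 7 days. The summed level of the 9 genes was 75.5, 67.4, 78.9 and 93.8 FPKM, so the light samples were at 0.893, 1.04 and 1.24 times the control. Olfml3 makes up more of this sum than any other gene. Without it, a choice made after seeing the data, the other 8 summed to 33.9, 27.4, 26.9 and 46.1 FPKM, or 0.809, 0.793 and 1.36 times the control, so the direction at 24 h depends on Olfml3.

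**Figure D1:**
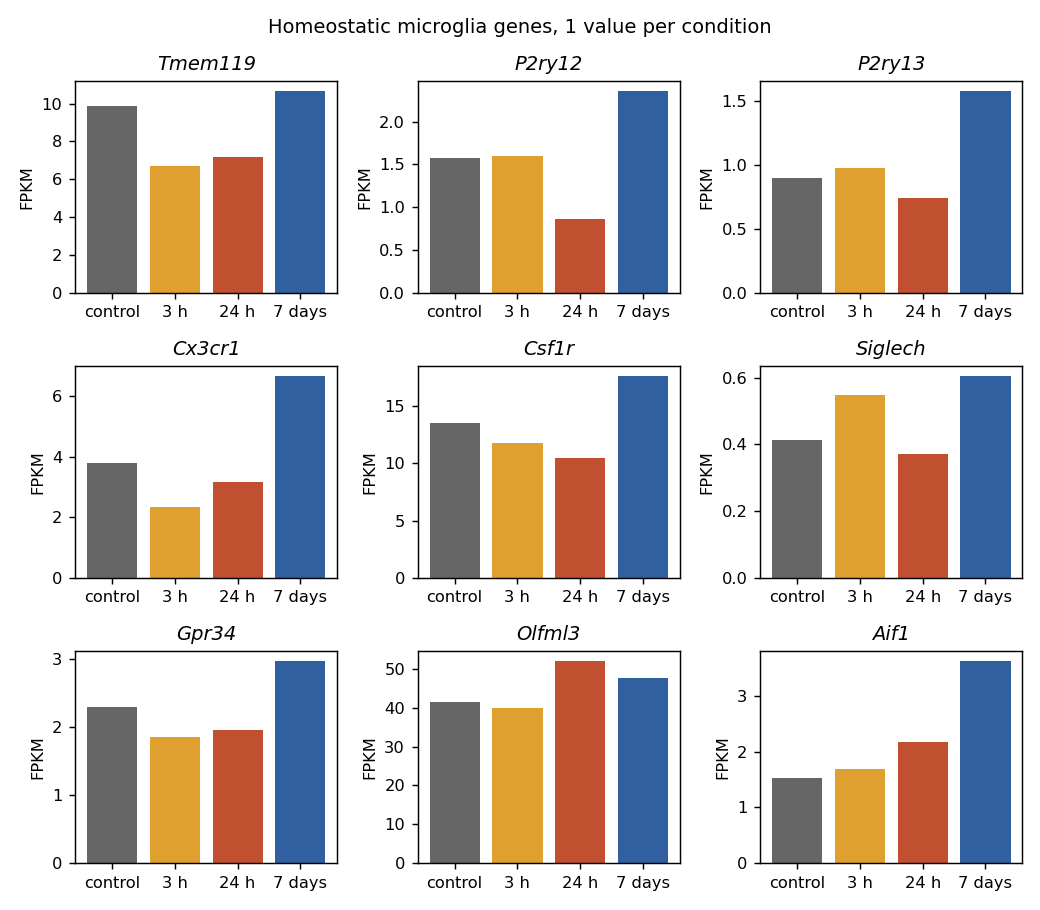
Deposited FPKM of each of the 9 homeostatic microglia genes (one panel per gene, linear axis from 0) in the control and at 3 h, 24 h and 7 days after light; each bar is 1 value, so there are no error bars. The bar at 7 days is the tallest in 8 panels, while Olfml3 is tallest at 24 h.

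FPKM is scaled to transcript length, so genes can be ranked within a sample. Olfml3, Csf1r, Tmem119 and Cx3cr1 held ranks 1 to 4 in every sample, at 41.6, 13.5, 9.87 and 3.79 FPKM in the control, and P2ry13 and Siglech held ranks 8 and 9. The middle ranks of Gpr34, P2ry12 and Aif1 changed places: Aif1 was below P2ry12 in the control (1.53 and 1.57 FPKM, closer than their counting errors), and above Gpr34 at 24 h and 7 days. Read counts were not used here, but an approximate depth can be had from olfactory receptor genes seen in a single sample, whose values should stand for 1 fragment. On that scale Siglech rested on about 21, 29, 26 and 57 fragments, Aif1 on 30, 34, 58 and 131, and Csf1r on 1185, 1034, 1233 and 2801. The counting error of a level was 13.2% to 21.6% for Siglech and 1.9% to 3.1% for Csf1r. These approximate errors cover counting only, not the spread between mice, and the errors given below with log2 ratios are of this kind.

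Of the 3 nucleotide- and lipid-sensing receptors, P2ry12 encodes the ADP receptor that steers microglial processes toward injured cells. P2ry12 was at 1.57, 1.59, 0.864 and 2.36 FPKM. Its control and 3 h values were nearly equal, the 24 h value was the low one and the 7-day value the high one. The 24 h level was 0.549 times the control, a log2 ratio of -0.87 with a counting error of 0.25, and the 7-day level was 1.5 times the control and 2.73 times the 24 h level. P2ry13 encodes a related ADP receptor. P2ry13 was at 0.898, 0.973, 0.739 and 1.57 FPKM, so its 7-day level was 1.75 times the control (log2 ratio 0.81, counting error 0.23). The 7-day sample was the high one, while the 24 h level differed from the control by a log2 ratio of -0.28, equal to its counting error of 0.28. Gpr34, a receptor for lysophosphatidylserine, was at 2.30, 1.85, 1.96 and 2.97 FPKM. Gpr34 was 0.804 and 0.852 times the control at 3 h and 24 h and 1.29 times at 7 days, with counting errors of 0.22, 0.2 and 0.17 on the log2 ratio.

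P2ry12 and P2ry13 lie within Med12l, and Gpr34 within Cask, each on the opposite strand of its host gene in the GRCm38 annotation. The labels do not say whether libraries kept strand, so reads from the host and the receptor may not be told apart. Med12l was at 3.51, 3.78, 3.74 and 3.86 FPKM and Cask at 10.97, 10.34, 10.7 and 10.4 FPKM. Both hosts therefore differed less between samples than the receptors did. Cx3cr1, Csf1r and Siglech overlap only non-coding RNA genes, for which no values were listed.

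Cx3cr1 encodes the receptor for fractalkine, through which neurons restrain microglia. Cx3cr1 was at 3.79, 2.33, 3.17 and 6.66 FPKM. The 3 h sample was the lowest and the 7-day sample stood above the rest. The 3 h level was 0.616 times the control, a log2 ratio of -0.70 with a counting error of 0.13, and the 7-day level was 1.76 times the control (log2 ratio 0.81, counting error 0.09). Cx3cl1, which encodes fractalkine, differed little, at 20.9, 19.3, 21.3 and 21.9 FPKM. The fractalkine-shedding protease genes Adam10 (20.3 to 21.4 FPKM) and Adam17 (9.89 to 11.5 FPKM) also spanned narrow ranges.

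Csf1r encodes the receptor on which microglial survival depends. Csf1r was at 13.5, 11.7, 10.5 and 17.6 FPKM. Its order was the 24 h sample lowest, then 3 h, the control and 7 days. The 24 h level was 0.773 times the control and the 7-day level 1.3 times, log2 ratios of -0.37 and 0.38 with counting errors of 0.06 and 0.05. Of its ligands, Csf1 was at 6.18, 4.85, 6.84 and 7.69 FPKM, and Il34, the ligand made by retinal ganglion cells, at 4.92, 5.85, 5.75 and 5.68 FPKM. Csf1 thus shared the high 7-day value, whereas Il34 was lowest in the control. In the list of 10 ligands and related signals, which also held Tgfb1, Cd200 and Gas6, 7 genes were above 0 at 7 days with a median log2 change of 0.14. None of the 10 reached a log2 change of 1 at any time, and Pros1, a bridging ligand of the phagocytic receptor MERTK, was the one past 0.5 at 24 h (12.06 to 20.1 FPKM).

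Tmem119 encodes a transmembrane protein used to tell microglia from blood-derived macrophages. Tmem119 was at 9.87, 6.72, 7.16 and 10.7 FPKM. The 3 h and 24 h samples lay together below the control and the 7-day sample close to it. The part of cells other than microglia in the Tmem119 values was not tested. The 3 h level was 0.681 times the control (log2 ratio -0.55, counting error 0.1), the 24 h level 0.726 times, and the 7-day level 1.08 times (log2 ratio 0.11, counting error 0.08), the smallest 7-day difference among the 9 genes on the log2 scale. Siglech, a sialic acid-binding lectin of microglia and plasmacytoid dendritic cells, was at 0.413, 0.549, 0.370 and 0.604 FPKM. Its mean of 0.484 FPKM fell short of the minimum of 1 FPKM, which made it the only one of the 9 below it, and its 7-day log2 ratio to the control was 0.55 with a counting error of 0.37.

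Aif1, which encodes the actin-binding protein IBA1 used to stain microglia, had a different course. Aif1 was at 1.53, 1.70, 2.17 and 3.63 FPKM. The 4 values increase in that order, but the first steps are near their counting errors. The log2 ratio was 0.15 for 3 h against the control (counting error 0.36) and 0.35 for 24 h against 3 h (counting error 0.31). The 7-day level was 2.38 times the control (log2 ratio 1.25, counting error 0.29). IBA1 marks resting and activated macrophages alike. Olfml3, a secreted olfactomedin-like matrix protein, was at 41.6, 39.95, 51.96 and 47.7 FPKM. The 24 h sample was the highest, 1.25 times the control, and the 7-day level was 1.15 times the control. The ratio of Olfml3 to Csf1r was 3.07, 3.4, 4.96 and 2.71. Markers of fibroblasts and matrix, a list of 10 genes, are given beside it because Olfml3 is a matrix protein. Most of them were lower after light. Their median log2 change was -0.95 for 3 h, -0.94 for 24 h and -0.40 for 7 days, with 9, 9 and 8 genes below 0. Col1a1, for example, was at 468, 224, 231 and 358 FPKM. Dcn (768, 760, 728 and 846 FPKM) and Lum (124.7, 126, 128 and 138 FPKM) differed less between samples. The summed level of that 10-gene list was 2097, 1488, 1452 and 1858 FPKM, and its part in the Olfml3 values was not tested.

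Promoter sequence was looked at because PU.1, a master transcription factor of macrophages, binds purine-rich elements near many microglial genes. RefSeq promoters were at hand for 6 of the 9 genes (P2ry12, P2ry13, Olfml3, Siglech, Cx3cr1 and Aif1). The 250 bases before the gene start were searched on both strands for the 6-letter core GAGGAA, read as TTCCTC on the other strand. It occurred in 2 of the 6 windows, those of P2ry13 and Aif1, and in 23.3% of all 32851 windows of that length in the table. The match began 48 bases before the start in P2ry13, on the gene's strand, and 7 bases before the start in Aif1, on the other strand. A match of letters is a description of the window and not a binding site. Shown are these windows and that of Cx3cr1, the gene with the second largest 7-day change after Aif1, which held no match. They are written 5′ to 3′ on the gene's strand in GRCm38.p6 with the core in capitals, at chr3:59210883-59211132 (minus strand) for P2ry13, chr17:35176053-35176302 (minus strand) for Aif1 and chr9:120068297-120068546 (minus strand) for Cx3cr1.
P2ry13: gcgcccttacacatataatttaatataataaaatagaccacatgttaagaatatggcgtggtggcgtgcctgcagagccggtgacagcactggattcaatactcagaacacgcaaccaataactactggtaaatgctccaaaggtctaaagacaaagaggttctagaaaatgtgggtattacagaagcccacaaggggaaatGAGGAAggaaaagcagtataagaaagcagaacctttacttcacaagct
Aif1: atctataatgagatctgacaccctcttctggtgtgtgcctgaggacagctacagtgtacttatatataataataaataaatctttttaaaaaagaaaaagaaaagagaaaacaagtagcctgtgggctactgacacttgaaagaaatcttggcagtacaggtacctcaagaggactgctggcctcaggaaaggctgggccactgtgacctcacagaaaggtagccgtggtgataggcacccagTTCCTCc
Cx3cr1: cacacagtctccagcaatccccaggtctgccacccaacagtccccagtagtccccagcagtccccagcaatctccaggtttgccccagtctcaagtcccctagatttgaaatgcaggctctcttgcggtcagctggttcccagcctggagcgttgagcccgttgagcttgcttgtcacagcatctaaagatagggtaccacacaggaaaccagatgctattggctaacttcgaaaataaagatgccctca

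For each comparison the 9 genes were next read as a group, on the difference of log2(FPKM + 1) between samples, which is smaller than the plain log2 ratio for low genes. A difference of at least 1 in either direction counted as a change, and a second threshold of 0.5 was also read. The 3 comparisons with the control share the control value, and the 2 successive ones share the 24 h value.

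At 3 h after light the median log2 change was -0.06 against 0.02 for all genes, of which 45.7% lay below 0. Of the 9 genes, 5 lay below the control and 4 above it. None was past 1, where 0.55% of all genes were higher and 0.24% lower. Cx3cr1 (-0.52) was the one past the second threshold, which 1.44% of genes passed downwards and 2.56% upwards, and Tmem119 followed at -0.49. P2ry12, P2ry13, Siglech and Aif1 lay between 0.01 and 0.13, and the 0.01 of P2ry12 turned negative under both rescalings tried. Cx3cr1 and Tmem119 thus had the largest negative changes at 3 h, with smaller ones for Gpr34 (-0.21), Csf1r (-0.19) and Olfml3 (-0.06). The median at 3 h is the value of Olfml3.

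At 24 h the median was -0.16 against 0.01 for all genes, of which 48.6% lay below 0. Of the 9 genes, 7 lay below the control and 2 above it. Again none was past 1, where 0.747% of genes were higher and 0.359% lower, and none passed 0.5, which 2.71% of genes did upwards and 2.94% downwards. P2ry12 (-0.47), Tmem119 (-0.41) and Csf1r (-0.34) were the lowest, and Aif1 (0.33) and Olfml3 (0.32) were the 2 above the control. The genes at the bottom had changed since 3 h: P2ry12 went from 0.01 to -0.47 and Cx3cr1 from -0.52 to -0.20. The median at 24 h was 0.32 over the 3 genes (Tmem119, Olfml3 and Aif1) that overlap no other gene in the RefSeq table. This is the value of Olfml3, as the subset holds both genes above the control.

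At 7 days all 9 genes lay above the control, with a median of 0.35 against 0.00 for all genes, of which 50.7% lay above 0. None reached a log2 change of 1, where 0.409% of genes were higher and 0.19% lower. Aif1 (0.87) and Cx3cr1 (0.68) passed 0.5, which 1.19% of genes did upwards and 0.986% downwards. With a pseudocount of 0.1 in place of 1, Aif1 passed the threshold of 1 at 1.20. Changes of P2ry13 (0.44), P2ry12 (0.38) and Csf1r (0.35) followed, and Gpr34 (0.27), Olfml3 (0.20), Siglech (0.18) and Tmem119 (0.10) were lower in order. The 7-day sample also differed in sex-linked transcripts: Ddx3y, a Y-linked gene, was at 6.59 FPKM, and at 0.00528 FPKM or less in the other samples, while Xist was at 37.1 FPKM against 47.2 to 53.8. Time and sex therefore cannot be told apart in any comparison of the 7-day sample.

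Successive samples gave a small change from 3 h to 24 h and a larger one from 24 h to 7 days. From 3 h to 24 h the 9 genes had a median of 0.05, with 5 above 0, where 47.3% of all genes lay. None reached 1, where 0.514% of genes were higher and 0.437% lower. P2ry12 was lowest (-0.48), and Olfml3 (0.37) and Cx3cr1 (0.32) were highest, none past 0.5, which 1.92% of genes passed upwards and 3.09% downwards. From 24 h to 7 days the median was 0.55. Above 0 lay 48.5% of all genes and 8 of the 9, Olfml3 (-0.12) being the exception. None reached 1, where 0.296% of genes were higher and 0.514% lower. Past 0.5 were 6 genes, Cx3cr1 (0.88), P2ry12 (0.85), Csf1r (0.70), P2ry13 (0.57), Aif1 (0.55) and Tmem119 (0.51), where 1.66% of all genes passed upwards and 1.97% downwards. As plain ratios, P2ry12 was 2.73 times, P2ry13 2.13 times and Cx3cr1 2.1 times its 24 h level.

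**Figure D2:**
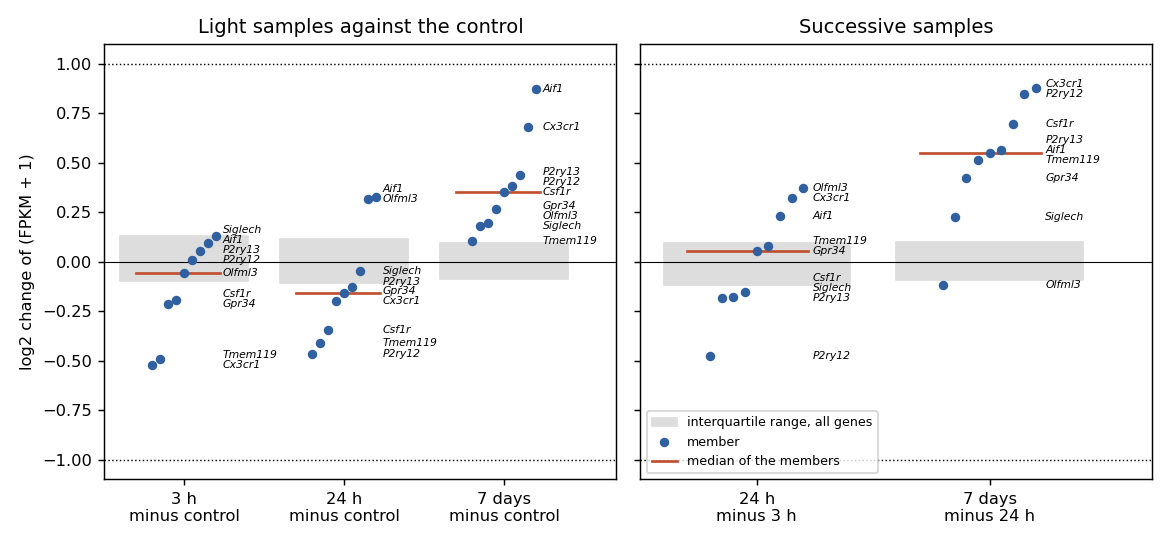
Log2 change of (FPKM + 1) for each of the 9 genes (points) in the light samples against the control (left) and between successive samples (right), with the median of the 9 (line), the interquartile range of all 14194 genes (grey) and the threshold of 1 (dotted). All 9 points lie above 0 for 7 days against the control, and 8 of 9 for 7 days against 24 h.

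Other genes of the resting signature, from a list of 19 that included Fcrls, Sall1, Selplg and P2ry6, had median log2 changes of 0.03, -0.03 and 0.11 in the 3 light samples against the control. At 7 days 14 of the 19 lay above 0, none reached 1 and 2 passed 0.5. One of them was Selplg, the P-selectin ligand (1.16, 1.41, 0.906 and 2.11 FPKM). Selplg had the low 24 h and high 7-day values seen for P2ry12. The microglial transcription factor gene Sall1 was at 1.42, 1.08, 1.15 and 1.51 FPKM, near its control level at 7 days like Tmem119. Several genes of that list, such as Cst3, Sparc and Bin1, are also expressed outside microglia. Lag3 was the one past 0.5 at 24 h (1.04 to 2.09 FPKM).

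In a list of 8 transcription factors of myeloid cells, medians were 0.00, -0.05 and 0.07 at 3 h, 24 h and 7 days, and none reached 1. Spi1, which encodes PU.1 and is listed as Sfpi1, was at 2.25, 2.63, 2.27 and 3.63 FPKM, so its highest value was also at 7 days. Irf8, a partner of PU.1, was at 1.66, 1.60, 3.28 and 2.81 FPKM, with its highest value at 24 h, when 7 of the 9 homeostatic genes were below the control. Mef2c, which is also a neuronal and muscle gene, was at 29.8, 25.5, 16.4 and 22.6 FPKM.

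Beside the homeostatic genes stood 20 disease-associated microglia genes and 20 general myeloid genes, whose 7-day median log2 changes were 0.43 and 0.76, against 0.35 for the 9. A log2 change of 1 at 7 days was reached by 5 of the disease-associated genes, 6 of the general myeloid genes and none of the 9. The 5 were Trem2 (2.14 to 9.62 FPKM), its adaptor Tyrobp (13.6 to 44.9 FPKM), the cystatin gene Cst7 (0.191 to 1.81 FPKM), the beta-glucan receptor gene Clec7a (1.01 to 4.15 FPKM) and Cd68 (4.08 to 12.1 FPKM). The 6 were the complement genes C1qa, C1qb and C1qc, the Fc receptor chain Fcer1g, Mpeg1 and Ly86. With a pseudocount of 5, Cst7 (0.39), Clec7a (0.61) and Cd68 (0.91) did not reach 1, nor did Fcer1g (0.88), Mpeg1 (0.77) and Ly86 (0.75). As a plain ratio, Aif1 was 2.38 times the control at 7 days, beside 2.37 times for Fcer1g, which was counted. The pseudocount of 1 lowers the log2 change more for low genes, so these counts depend on abundance. Aif1 passed 1 with a pseudocount of 0.1. At 24 h the homeostatic genes had a median of -0.16, the disease-associated genes 0.16 and the general myeloid genes 0.15. The differences between lists were not tested.

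**Figure D3:**
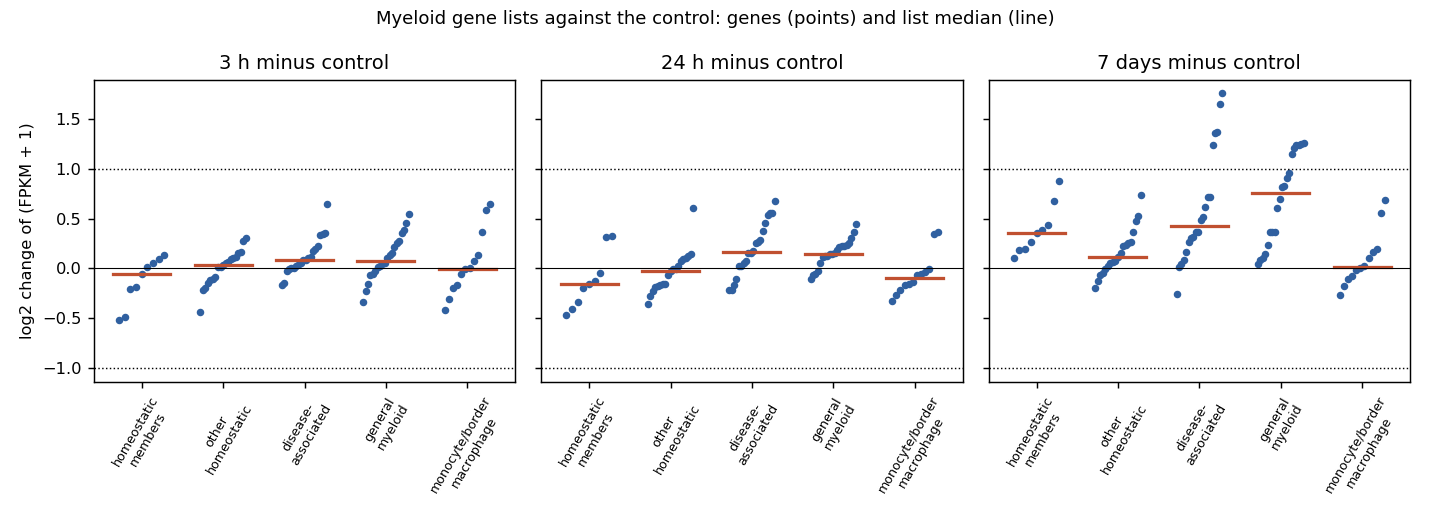
Log2 change of (FPKM + 1) against the control at 3 h, 24 h and 7 days for the genes (points) and the median (line) of 5 myeloid lists, with the threshold of 1 dotted. At 7 days the points past 1 belong to the disease-associated (5 genes) and general myeloid (6 genes) lists.

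Ratios of FPKM within a sample do not depend on library scaling, and each of the other 8 genes was set against Csf1r. Cx3cr1 over Csf1r was 0.279, 0.199, 0.302 and 0.378, lowest at 3 h and highest at 7 days. Tmem119 over Csf1r was 0.728, 0.573, 0.684 and 0.606, below the control in each light sample but least so at 24 h. Counting errors were not computed for these ratios, so small differences between them cannot be read. P2ry12 over Csf1r was 0.116, 0.136, 0.0825 and 0.134, with the 24 h sample low. Aif1 over Csf1r was 0.113, 0.145, 0.207 and 0.206, lowest in the control. For P2ry13 the ratio was 0.0663, 0.083, 0.0706 and 0.0894, for Gpr34 0.17, 0.157, 0.187 and 0.169 and for Siglech 0.0305, 0.0468, 0.0353 and 0.0343.

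Markers of other immune cells were read beside these values. The list of 12 monocyte and border macrophage genes had a median of 0.01 at 7 days, with 7 of 12 above 0 and none past 1. The summed level of this list was 208, 271, 216 and 228 FPKM. Most of that sum came from Cbr2 (109, 141, 104 and 126 FPKM) and Plac8 (57.9, 91.1, 74.8 and 58.0 FPKM), so it says little about the other genes. In the same list, the monocyte gene Ccr2 was at 2.19, 2.19, 2.10 and 2.24 FPKM and Ly6c2 at 0.459, 0.177, 0.308 and 0.214 FPKM. The macrophage genes Ms4a7 (2.85 to 5.20 FPKM) and Adgre1, listed as Emr1 (2.96 to 4.81 FPKM), were the 2 past 0.5 at 7 days. Mrc1, a marker of perivascular macrophages, was at 4.77, 4.13, 3.96 and 4.70 FPKM. Of 10 neutrophil genes 9 were found, with a summed level of 5.10, 5.78, 8.53 and 11.8 FPKM and a median of 0.01 at 7 days. S100a8 (1.07) and S100a9 (1.39) were past 1 at 7 days, but not with a pseudocount of 5 (0.47 and 0.66). S100a9, at 1.22, 2.41, 3.54 and 4.80 FPKM, was already past 1 at 24 h (1.03). At 7 days Csf3r (0.579 to 1.27 FPKM, log2 change 0.53) was the other gene past 0.5, and 6 of the 9 lay above 0. The 3 below the control were Retnlg (0.142 to 0.0378 FPKM), Ngp (0.151 to 0.116 FPKM) and Elane (0.0487 to 0.0255 FPKM). For scale, 1 fragment of an olfactory receptor gene stood for about 0.0448 FPKM in the control and 0.0255 FPKM at 7 days. The granule gene Mpo did not exceed 0.011 FPKM and was at 0 in the control and 3 h samples. The 12 lymphocyte and plasmacytoid dendritic cell genes summed to 46.9, 45.5, 50.8 and 51.7 FPKM, nearly all from Bst2 and Tcf4, which other cells express too. Cd3e did not exceed 0.117 FPKM, and Nkg7, a gene of cytotoxic lymphocytes, was the one past 0.5 at 7 days (0.180 to 0.737 FPKM, log2 change 0.56). The part of other macrophages in the 7-day values of Csf1r, Cx3cr1 and Aif1 was not tested.

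The eye samples also differed in photoreceptor RNA, with 10 rod genes at a summed level of 12694, 11084, 8130 and 8425 FPKM, and lens genes took 20.9% to 24.9% of all FPKM. Rescaling the samples to the same sum without lens, skeletal muscle, erythroid, surface epithelium and small RNA genes left the median of the 9 genes at -0.12, -0.19 and 0.31 at 3 h, 24 h and 7 days. The tissue is labelled as whole eye although the extraction protocol speaks of retinas, so the share of retina in the samples is not known.

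By the 3 log2 changes against the control, the genes nearest to the median course of the 9 (-0.06, -0.16 and 0.35) among 13546 other protein-coding genes were Lrrc66, 5730507C01Rik, Icam2, Cpxm1 and Lcat, at Euclidean distances of 0.0485, 0.0597, 0.067, 0.0757 and 0.0925. In all, 88 genes (0.65%) lay within 0.2. Icam2, an adhesion molecule of endothelium and leukocytes, was at 2.77, 2.70, 2.52 and 3.74 FPKM. Likeness over 3 differences that share 1 control value is a description only. Of the 9 themselves, P2ry13 lay nearest to the median course (distance 0.144) and Aif1 farthest (0.726).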

How the data were processed

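RNA from whole eyes of 4 conditions was sequenced, and 1 FPKM value per gene and condition was deposited. Per the submitters' processing notes, the authors used bcl2fastq 1.8.3, TopHat2 and Cuffdiff 2.2.1 with the mm9 build. Cufflinks is named in the series design. The sources used here do not give the annotation, the library scaling or the treatment of multi-mapped fragments, nor whether a value is 1 pooled library or a mean. FPKM totals ranged from 626973 to 680305.

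From these values, log2 changes with a pseudocount of 1 were computed in Python 3.11.15, with numpy 2.4.6 and pandas 2.3.3. Genes with a mean of at least 1 FPKM over the 4 samples (14194 of 22558) formed the background, and the 9 genes were all kept in their own counts. With 1 value per condition no test was run. Functions were checked on simulated data. Approximate depth came from 14 to 20 olfactory receptor genes a sample and the longest RefSeq-matched transcript in GRCm38. Gene classes matched 99% of names in the GRCm38.p6 table.

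All 9 genes were to be named, as were genes of 17 lists (219 of 221 entries found), overlapping genes and the 5 nearest in course. The values of a few list genes are not reported here. The members and lists were chosen with earlier results of these data known. Alternatives were pseudocounts of 0.1 and 5, both rescalings, no filter or a mean of at least 5 FPKM, a threshold of 0.5, subsets of the 9 genes and protein-coding genes only. Leaving out Olfml3 was added after seeing the data.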

Additional observations from a re-analysis of the deposited data

Results flagged for a closer look

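For 8 of the 9 genes, the log2 change against the same control had opposite signs at different times after light. Of all 14194 genes, 51% did so. Opposite signs mean only that the control value of a gene was neither its highest nor its lowest. The control was the highest sample for 22.1% of all genes and the lowest for 26.9%. The 24 h values of Siglech and P2ry13 differ from the control by no more than about their counting error. The same holds for the 3 h values of P2ry12, P2ry13 and Siglech. Values little past their counting error include Tmem119 at 7 days (log2 ratio 0.11, counting error 0.08), Olfml3 at 3 h (-0.06, 0.04) and Gpr34 at 24 h (-0.23, 0.2). With 1 value per time these differences were not tested. Tmem119 was at -0.49 at 3 h, -0.41 at 24 h and 0.10 at 7 days. P2ry12 was at 0.01, -0.47 and 0.38 at these times, and P2ry13 at 0.06, -0.13 and 0.44. For Cx3cr1 the values were -0.52, -0.20 and 0.68, and for Csf1r -0.19, -0.34 and 0.35. Siglech was at 0.13, -0.05 and 0.18, and Gpr34 at -0.21, -0.16 and 0.27. Olfml3 was at -0.06 at 3 h, 0.32 at 24 h and 0.20 at 7 days. Aif1 lay above 0 at each time.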

How the results depend on the processing

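No paired analysis was possible because each condition has 1 value, and leaving out replicates could not be done for the same reason. Of 3361 values recomputed, 3110 stayed within 0.2 log2 units or 1.5 times a count and 251 moved further. No value past a log2 change of 1 changed sign. Smaller values did, among them 2 medians that moved by more than 0.2, both given here, and P2ry12 at 3 h under both rescalings. With a pseudocount of 0.1, the genes of the 9 past a log2 change of 1 numbered 1 at 7 days against the control and 2 at 7 days against 24 h, in place of 0, while of all genes 84 were higher in the first comparison and 73 in the second, in place of 58 and 42. With a pseudocount of 5 the median at 7 days against 24 h was 0.27 in place of 0.55. At the threshold of 0.5, 1 gene was lower at 3 h, 2 were higher at 7 days against the control and 6 at 7 days against 24 h. A subset of 5 genes (Tmem119, P2ry12, P2ry13, Siglech and Gpr34) was picked as least expressed outside microglia, which was not measured here. Its median was 0.01 at 3 h, in place of -0.06, and -0.18 at 24 h against 3 h, in place of 0.05. Without Olfml3 the median at 24 h against 3 h was -0.05, also below 0. The 3 genes that overlap no other had a median of 0.32 at 24 h against the control, in place of -0.16. That median is the value of Olfml3, which stood between Tmem119 (-0.41) and Aif1 (0.33), and this subset holds the 2 genes above the control. Any part of overlapping genes in this shift was not tested, nor was the cause of the other shifts. The median at 7 days against the control stayed above 0 under every alternative tried, from 0.16 with a pseudocount of 5 to 0.46 with one of 0.1. Neither rescaling shifted a sample by more than 0.07 log2 units. Among all genes, protein-coding ones past 1 numbered 37 higher and 15 lower at 3 h in place of 78 and 34. For 24 h these counts were 60 and 29 in place of 106 and 51, and for 7 days 24 and 7 in place of 58 and 27. The threshold of 0.5 gave 363 higher and 205 lower genes for 3 h, 384 and 417 for 24 h, and 169 and 140 for 7 days. Siglech, P2ry13 and Aif1 are limited by depth, with counting errors above 13% in the control.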
